A study of Mus musculus with 2 samples.

Results

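The cytosolic ribosomal protein (RP) genes encode the proteins of the large (Rpl) and small (Rps) subunits of the ribosome that translates nuclear mRNAs. They were chosen by symbol, as names of the form Rpl or Rps followed by a digit together with Rpsa, Rplp0, Rplp1 and Rplp2, without pseudogenes (-ps) and Rps6k kinases, and with at least 50 unique molecular identifiers (UMIs, each counted as 1 captured mRNA molecule) over both libraries. Of 86 genes with such a symbol, 83 had enough UMIs, out of 20402 genes with a UMI in either library. The 83 genes comprised 49 Rpl and 34 Rps symbols. The symbol rule takes in 6 genes that are paralogs, variants or unrelated proteins with a similar name: Rps19bp1, Rpl7l1, Rpl22l1, Rps27l, Rps27rt and Rpl36al. It leaves out ribosomal proteins under other names, such as Fau and Rack1, so the list holds 77 of the 80 subunit proteins.

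Live CD45+ cells were sorted from adrenal glands of 7-week-old C57Bl/6 mice, 1 library from females and 1 from males, and profiled by droplet 3′ single-cell RNA sequencing. CD45, encoded by Ptprc, is the pan-leukocyte surface protein used for the sort. Neither library carried a treatment or transgene according to its labels, and the number of animals pooled in each is not given in the labels. With 1 library per sex there is no replicate, so no test was run, and intervals below are 95% intervals that cover counting error only, not the spread between animals.

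After filtering, 3694 cells of the female library and 2449 of the male library remained, with 15019197 and 9023506 UMIs and medians of 3489.5 and 3008 UMIs per cell. Of these cells, 83.3% had a Ptprc UMI in the female library and 76.1% in the male library. Clusters were made without the RP genes and named from marker genes, so class names carry the suffix "-like". Endothelial-like cells, a type that a CD45+ gate should not hold, numbered 48 and 52, and 12 and 16 of them had a Ptprc UMI. A shallow cluster of 68 female and 140 male cells, 1.84% and 5.72% of the cells, was closest to macrophages by markers and stayed unnamed. The libraries shared 2 cell barcodes.

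Ribosomal proteins are assembled with ribosomal RNA in nearly equal numbers, since each ribosome carries 1 copy of most of them, and the acidic stalk proteins Rplp1 and Rplp2 are the known exception. Their mRNAs are among the most abundant of a cell and share a 5′ terminal oligopyrimidine (TOP) motif, a C at the first base followed by an unbroken run of C and T. Through this motif, mTOR signalling and the RNA-binding protein Larp1 set how much of the mRNA is translated, so the mRNA level and the rate of ribosome production need not move together. Leukocytes are known to differ in RP mRNA content, resting lymphocytes having much of it.

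Pyrimidine runs at the start were more frequent among these genes than among all genes, though most members had none of the length searched. RefSeq start sites on GRCm38.p6 were found for 63 of the 83 genes. A run of at least 8 pyrimidines that began with C within 10 bases of the annotated start was present in 24 of the 63 (38.1%), against 2549 of 27025 genes in the same table (9.43%). A run counted here may begin before or after the annotated first base, so its position is looser than that of the TOP motif. The minimum of 8 bases is a limit on length, and shorter runs, such as the 6 bases of Rpl12, were not counted. The 24 genes are therefore not a count of members with or without a TOP motif. The median length of the longest such run was 6 bases for the RP genes and 4 bases for all genes. The windows below are shown for the genes on which the results turn, those with the largest differences between classes or between libraries. Each runs 5′ to 3′ on the gene's own strand from 15 bases before the start site to its first 15 bases, and capitals mark the longest run of C and T that begins with C near the start.
Rps15a, chr7:118116133-118116162, minus strand: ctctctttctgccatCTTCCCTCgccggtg
Rpl12, chr2:32961697-32961726, plus strand: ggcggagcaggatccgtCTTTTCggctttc
Rps9, chr7:3704026-3704055, plus strand: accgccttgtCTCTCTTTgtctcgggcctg
Rpl36al, chr12:69184053-69184082, minus strand: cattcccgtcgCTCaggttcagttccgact
Rps27l, chr9:66946071-66946100, plus strand: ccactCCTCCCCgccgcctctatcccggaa
Rps27, chr3:90213634-90213663, minus strand: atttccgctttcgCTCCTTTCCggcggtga
Rps27rt, chr9:114982725-114982754, minus strand: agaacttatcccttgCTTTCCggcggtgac
Rpl35, chr2:39005117-39005146, minus strand: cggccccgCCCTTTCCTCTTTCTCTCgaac
The longest of these runs was that of Rpl35, with 18 bases, and the shortest that of Rpl36al, with 3 bases. Rps27 has a run of 9 bases, while its paralog Rps27l has one of 7 bases that lies upstream of the annotated start. A run is a description of these letters only, and no factor's binding was measured.

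Over all cells the RP genes took 26.6% of the UMIs of the female library and 23.3% of the male library. The Rpl to Rps ratio of UMIs was 1.15 and 1.12. The most abundant single gene was Rps29, a small zinc-binding protein of the small subunit, at 8747 CPM (counts of a gene per 10 to the power of 6 UMIs of a class and library) in the female and 8855 CPM in the male library. By UMIs over both libraries it was followed by Rps24 (7635 and 6632 CPM), Rpl37a (6961 and 6187 CPM) and Rpl39 (6995 and 5539 CPM). Rpl39 was above Rpl37a in the female library only. Rps15a, Rplp1, Rps21, Rpl41 and Rpl13 were also among the 10 highest, between 4646 and 6290 CPM. Fau, whose product is a ubiquitin-like protein fused to a small subunit protein, stood at 6333 and 5596 CPM, a level like theirs. At the other end were Rps19bp1 (38.6 and 33.9 CPM), a protein named for its binding to Rps19, Rpl7l1 (58.9 and 64.6 CPM) and Rpl10 (54.1 and 71.9 CPM). Reads of a 3′ library come from the transcript end, so CPM is not divided by length. Differences between genes on this scale are differences in captured ends, and the level of Rpl10 is uncertain because its end is identical to that of a copy.

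The share of RP transcripts differed between cell classes by far more than between the libraries. In macrophage-like cells, defined by Adgre1, the C1q genes and Csf1r, the share was 17.3% in 812 female cells (95% Clopper-Pearson interval 17.30 to 17.38) and 15.9% in 788 male cells (15.84 to 15.92). T-like cells held 35.3% (707 cells) and 34.2% (388 cells), and B-like cells 34.5% (516 cells) and 35.2% (267 cells). Both lymphocyte classes thus had about double the macrophage share in each library, with ratios of 2.04 and 2.15 for T-like cells and of 1.99 and 2.21 for B-like cells.

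Between these ends lay dendritic-like cells at 30.6% and 28.7%, ILC-like (innate lymphoid) cells at 29.3% and 30.3%, NK-like cells at 26.3% and 23.1%, and monocyte-like cells at 21.6% and 20.6%. Plasmacytoid dendritic-like cells (19 and 9 cells; 23.7% and 28.1%) and mast- or basophil-like cells (23 and 6 cells; 21.5% in each library) were few. Endothelial-like cells were lower than macrophages, at 13.5% and 14.1%. Neutrophil-like cells were lowest of the named classes, at 5.84% (48 cells) and 3.82% (50 cells), which is 0.337 and 0.241 times the macrophage share. Neighbours that changed places between the libraries were T with B, monocyte with mast or basophil, NK with plasmacytoid dendritic, and dendritic with ILC.

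Single cells showed the same separation. The middle 50% of macrophage-like cells ranged from 12.8% to 20.5% in the female and from 11.1% to 19.8% in the male library. Those of T-like cells ranged from 28.5% to 42.8% and from 26.1% to 43.8%, without overlap with the macrophages. The medians of RP and other UMIs per cell separate the numerator from the denominator. T-like cells held 1328 and 1088 RP UMIs per cell against 608.5 and 478.5 in macrophage-like cells, with 2446 and 2355.5 other UMIs against 3044 and 2412.5. B-like cells held 790 and 620 RP UMIs with only 1400 and 1119 other UMIs. Neutrophil-like cells held 65.5 and 64.5 RP UMIs with 1590.5 and 1568.5 other UMIs, so other transcripts were more numerous in them than in B-like cells.

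**Figure D1:**
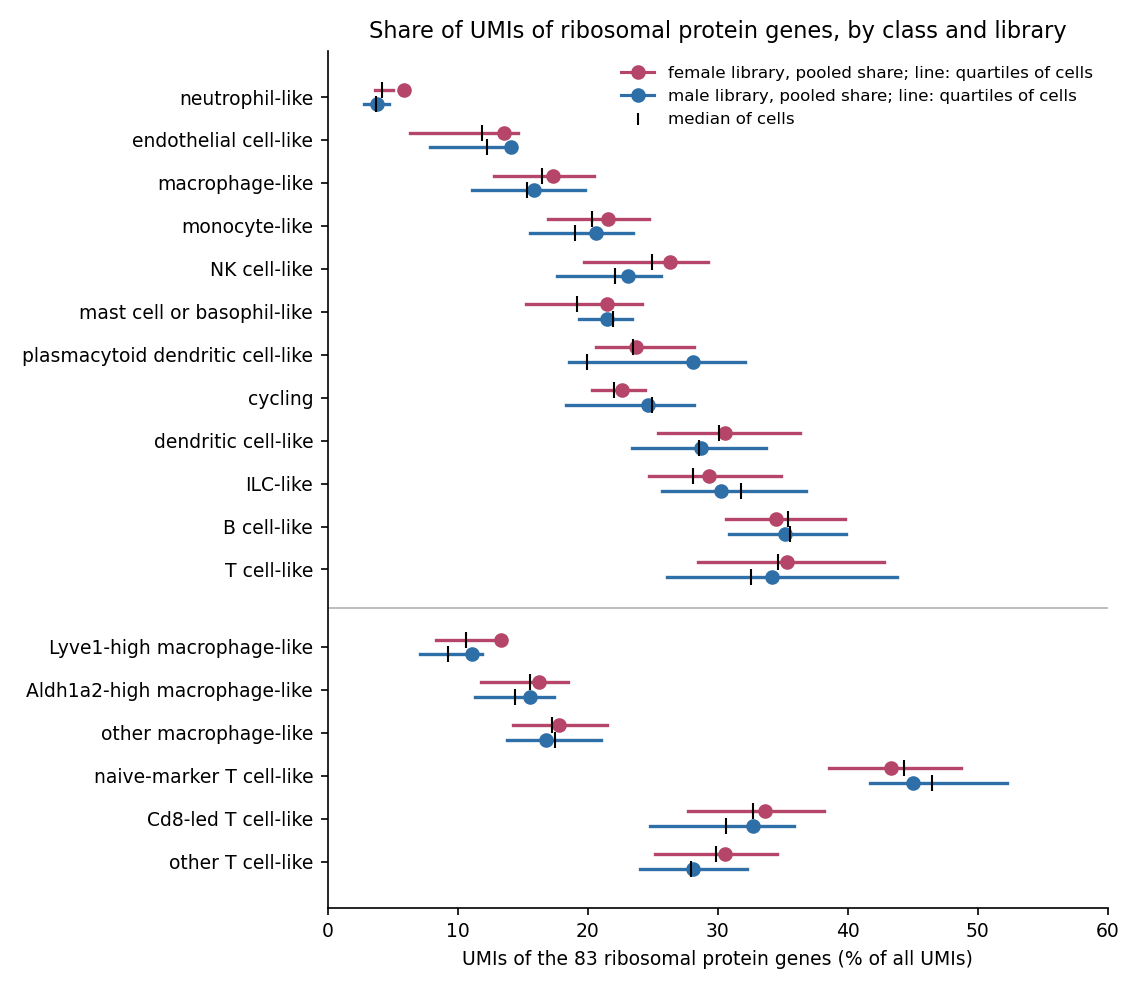
Horizontal axis, UMIs of the 83 RP genes as a percentage of all UMIs, for each class and for macrophage and T cell subsets; points are the pooled share of a library (female red, male blue), lines the quartiles of its cells and black ticks the cell median. The points run from 5.84% and 3.82% in neutrophil-like cells to 35.3% and 34.2% in T-like cells, and 43.4% and 45.0% in T-like cells with naive markers.

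Macrophages are the tissue-resident phagocytes of the gland and were divided further by markers. Lyve1-high macrophages, which carry Lyve1, Folr2 and Cd163, had the lowest RP share of the 3 subsets, 13.3% in 88 female cells and 11.1% in 161 male cells. Aldh1a2-high macrophages held 16.3% (84 cells) and 15.5% (99 cells), and the other macrophages 17.8% (640 cells) and 16.8% (528 cells). The Lyve1-high cells were also the shallowest, with medians of 1735 and 1877 UMIs per cell against 3955.5 and 3398.5 in the other macrophages. Their mitochondrial share was higher, with medians of 5.48% and 5.75% against 2.94% and 2.83%, and the part of depth and RNA quality in the lower RP share was not tested.

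The size of the gap varied between members, and the genes given here were chosen after their values were seen. Rpl12 stood at 1352 and 898 CPM in Lyve1-high macrophages against 2014 and 1969 CPM in the other macrophages. Rpl22l1, a paralog of the large subunit protein Rpl22, stood at 269.5 and 203.9 CPM against 551 and 542 CPM. Rps29 differed less, at 6568 and 7214 CPM against 7243 and 7691 CPM.

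Within the other macrophages the clusters spanned a wide range as well. The cluster led by Wfdc17, Aif1 and Cxcl14 held 23.4% and 22.04%, near the monocyte share. That led by Zmynd15, Mmp13 and Ch25h held 17.8% and 16.3%, and that led by Ms4a7, Slc40a1 and Trem2 held 14.4% and 14.2%. The cluster led by Ccn1, Gpx3 and Tmem119 held 16.3% of the UMIs in 164 female cells and 13.1% in 54 male cells.

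The study divides adrenal macrophages by MHC class II. Here the division was applied to the 640 and 528 other macrophages alone, without the Lyve1-high and Aldh1a2-high cells. Cells were thinned to 1000 UMIs, leaving out 11 and 7 shallower ones. Low cells had at most 10 of these UMIs from the MHC class II genes H2-Ab1, H2-Aa and H2-Eb1 and the invariant chain Cd74. The 178 female low cells had an RP share of 17.3% against 17.98% in 451 high cells, and the 20 male low cells 14.0% against 16.9% in 501 high cells. The direction of this difference turned in the female library with a boundary at 20, with a mitochondrial ceiling of 5% and when cells were gated one by one, and in the male library with the last of these, so no order of the low and high cells is read from it.

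T-like subsets differed as well. Cells with naive markers had RP shares of 43.4% (262 cells) and 45.0% (132 cells), which is 2.50 and 2.84 times the macrophage share. The Cd8-led cells held 33.6% and 32.7%, and the remaining T-like cells 30.5% and 28.1%. In the naive-marker cells the RP UMIs per cell were high, at medians of 1535 and 1301.5, and the other UMIs were 2014 and 1550.5. B-like subsets were alike, with 34.5% and 34.4% in Ighd-led cells and 34.5% and 36.2% in Igkc-led cells. Among NK-like cells the Itga1-led cluster held 28.3% and 24.4%, and the Klra4-led cluster 22.6% and 20.9%. In NK-like cells the RP share was also larger in deeper cells, with a correlation of share and log UMIs of 0.59 in 865 female and 0.59 in 370 male cells, given as a description. In macrophage-like cells that correlation was 0.10 and 0.08. Chil3-led monocytes, the classical type, held 22.6% and 22.3%, and Ace-led monocytes 17.9% and 15.5%. Xcr1-led dendritic cells held 33.3% and 31.3%, and Cd209a-led dendritic cells 29.5% and 27.4%.

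Gene by gene, most members took part in these differences. A gene was counted when its CPM differed from macrophage-like cells by at least 1.5-fold in the same direction in both libraries, with at least 200 UMIs over both classes. In T-like cells 72 of the 83 genes were higher by this rule, against 17.6% of the 6136 genes compared, and 1 was lower, against 26.0%. In B-like cells 74 were higher, against 10.8% of 5241 genes, and 1 was lower, against 33.9%. In dendritic-like cells 71 were higher, against 6.64% of 4727 genes, and none was lower, against 25.6%. At 2-fold the higher counts were 40 in T-like (9.27% of genes), 38 in B-like (6.35%) and 7 in dendritic-like cells (2.67%). In each of these classes taken alone, most members thus did not reach 2-fold in both libraries. Members that reached it in at least 1 of the classes were not counted. The single gene that was lower in T-like and in B-like cells was Rps27l in each case.

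The median log2 ratio of the RP genes to macrophages was 0.98 and 1.08 in T-like cells, in the female and male library, against -0.02 and -0.05 over all genes compared. It was 0.98 and 1.11 in B-like cells, against -0.37 and -0.34, and 0.82 and 0.87 in dendritic-like cells, against -0.33 and -0.31. As CPM sums to a fixed total, a class with a larger RP share has lower CPM for its other genes by construction.

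NK-like and monocyte-like cells differed from macrophages for fewer members. In NK-like cells 39 of 83 genes were higher, against 24.6% of 6738 genes, and none was lower, against 19.7%, with a median log2 ratio of 0.62 and 0.57, against 0.18 and 0.22 over all genes compared. This excess over the background depended on the setting. With ratios divided by the median of all genes 12 of 83 were higher, against 17.1%, and at 2-fold 3 of 83, against 11.8%, both below the background, while without the RP genes in the denominator 55 were higher, against 31.7%. In monocyte-like cells 6 of 83 were higher, against 12.2% of 4936 genes, and none was lower, against 14.4%. With CPM taken over UMIs that are not of RP genes, 14 were higher, against 14.4% of genes, so the members stood below the background on one scale and above it on the other. These 6 were Rps9, Rpl18, Rps27a, Rps14, Rpl36al and Rps27rt, and the median log2 ratio of all 83 was 0.29 and 0.38, against -0.0053 and -0.0038 over all genes.

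Neutrophil-like cells showed the opposite pattern. There 79 of 83 genes were lower, against 45.4% of 4273 genes, and none was higher, against 14.1%. The median log2 ratio was -1.78 and -2.29, with -0.85 and -0.79 over all genes. The 4 genes that were not lower by this rule were Rps9, Rps27a, Rps27 and Rps27rt. Rps9 stood at 2608 (2281 to 2969) and 2866 (2525 to 3240) CPM in neutrophil-like cells, no lower than the 2596 and 2336 CPM of macrophage-like cells. Rps18 was among the lowest, with 32 UMIs in the female and 7 in the male neutrophil-like cells, or 0.177 and 0.0446 times the macrophage level. Markers of other classes moved with the female value of this class. The summed level of B cell markers was 1064 CPM in the female and 157 CPM in the male neutrophil-like cells, with 8 and 4 of 9 markers detected. Pax5 was at 0 in both, and Ms4a1, Cd79b and Ebf1 were among those at 0 in the male cells. The macrophage markers summed to 892 and 607 CPM, with 10 and 8 of 11 detected, Mertk at 0 in both and Fcgr1 among those at 0 in the male cells. The cell medians of the RP share, 4.21% and 3.75%, lay closer than the pooled shares, and the part of B cell and macrophage transcripts in the difference was not tested.

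**Figure D2:**
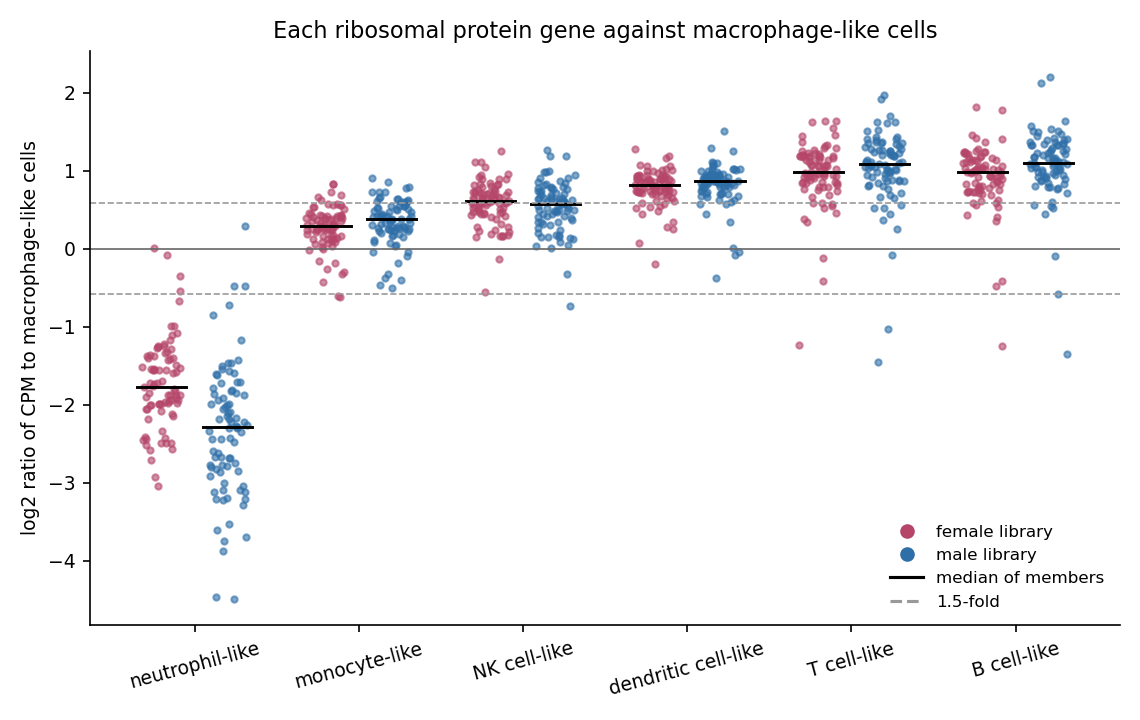
Vertical axis, log2 ratio of CPM in each class to macrophage-like cells of the same library; each point is 1 of the 83 RP genes (female red, male blue), black lines are medians and dashed lines mark 1.5-fold. The medians lie at -1.78 and -2.29 in neutrophil-like cells, at 0.29 and 0.38 in monocyte-like cells, and near 1 in T-like and B-like cells.

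Among single genes, Rps15a, a core protein of the small subunit, had the largest T-like to macrophage ratios apart from genes with near-identical copies. It stood at 2976 and 2640 CPM in macrophage-like cells and at 9306 and 8631 CPM in T-like cells, ratios of 3.13 and 3.27. In B-like cells it stood at 8197 and 8226 CPM, ratios of 2.76 and 3.12. In dendritic-like cells Rpl28 was among the highest, at 4586 and 4188 CPM, or 2.28 and 2.38 times its macrophage level.

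Rps27l was the clearest exception to the common direction. It is a paralog of Rps27 known as a target of p53, located at chr9:66946086-66949516 on the plus strand. In macrophage-like cells it stood at 436 (414 to 459) and 451 (427 to 476) CPM. In T-like cells it stood at 185 (170 to 201) and 166 (145 to 188) CPM, and in B-like cells at 185 (165 to 206) and 177 (148 to 211) CPM. The macrophage and lymphocyte values did not overlap in either library. Their ratios were 0.424 and 0.367 for T-like cells and 0.423 and 0.393 for B-like cells. NK-like cells were between, at 296 and 272 CPM, and monocyte-like cells stood at 348 and 342 CPM. Dendritic-like cells, at 458 and 454 CPM, were level with macrophages, although most other RP genes were higher in them. Rpl7l1, another gene named as a paralog, was also below its macrophage level in T-like cells, at 51.6 and 38.0 CPM against 68.4 and 77.4 CPM. Of the paralog Rpl22l1 the reverse was seen, with 1085 and 967 CPM in T-like cells against 516 and 476 CPM in macrophage-like cells. Rpl22 itself was higher in T-like cells as well, at 2972 and 2697 CPM against 1425 and 1299 CPM. The same held for Rpl3, a core protein of the peptidyl transferase centre, at 2226 and 2228 CPM against 1126 and 1035 CPM, and for Rps4x, at 5606 and 5228 CPM against 2679 and 2405 CPM.

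To separate the common level from single genes, each gene was expressed as a share of all RP UMIs of the class, as the log2 ratio to the mean of 8 named cell classes with at least 20000 RP UMIs in each library. Cycling cells, a state rather than a type, were left out, as were the small plasmacytoid dendritic-, mast- or basophil- and neutrophil-like classes. Of 76 genes with at least 50 UMIs in each class and library, 53 had a range across classes of under 0.5 log2 units and 1 had a range of over 1, with a median range of 0.40. Over the 76 genes, the class with the highest value was the same in both libraries for 48, and the lowest for 44. The deviations of the female and male libraries correlated across genes with r from 0.70 in endothelial-like cells to 0.97 in T-like cells, a description over genes, which are not independent and share their libraries.

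Rpl12, which sits at the base of the ribosomal stalk where elongation factors bind, had the widest range, 1.43. Its gene is at chr2:32961559-32965345 on the plus strand. Its proportion was highest in T-like cells, at 0.57 and 0.59 log2 units above the mean, and lowest in monocyte-like cells, at -0.88 and -0.81. In CPM, Rpl12 stood at 5590 and 5366 in T-like cells, 4212 and 4028 in B-like cells and 1911 and 1739 in macrophage-like cells. In monocyte-like cells it stood at 1247 (1176 to 1321) and 1228 (1140 to 1321) CPM, so it was below its macrophage level while most members were above theirs.

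Rps9, a small subunit protein at chr7:3703993-3706897, and Rpl36al, an autosomal paralog of the X-linked Rpl36a, had their highest proportion in monocyte-like cells. The values were 0.57 and 0.53 for Rps9 and 0.60 and 0.49 for Rpl36al. Rps9 stood at 4621 and 4225 CPM there against 2596 and 2336 CPM in macrophage-like cells. Rpl36al stood at 1422 and 1216 CPM against 798 and 781 CPM. Monocyte-like cells thus combined low Rpl12 with high Rps9 and Rpl36al in both libraries.

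Rplp1, an acidic stalk protein, was highest in ILC-like cells (0.47 and 0.33) and lowest in monocyte-like cells (-0.48 and -0.35). In CPM it stood at 9131 and 9139 in ILC-like, 4268 and 4405 in macrophage-like and 3471 and 3871 in monocyte-like cells. Rps2, next to the mRNA entry site of the small subunit, was also lowest in monocyte-like cells, at -0.53 and -0.48. Rpl7a had its highest proportion in monocyte-like cells (0.27 and 0.46) and its lowest in B-like cells (-0.37 and -0.46). Rps20 was highest in B-like cells (0.39 and 0.40). Rps19, the gene most often mutated in Diamond-Blackfan anaemia, was also highest in B-like cells (0.29 and 0.28) and lowest in NK-like cells (-0.35 and -0.46). Rps27rt, with a range of 0.95, was also among the 10 widest and shares its transcript end with Rps27.

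Rps27l had a wider range than any of these, 2.41, but under 50 UMIs in at least one class. It was at 1.07 and 1.31 in macrophage-like and at -1.19 and -1.24 in T-like cells. By contrast the stalk proteins Rplp0 and Rplp2 ranged over 0.32 and 0.31, Rpsa, also known as the laminin receptor, over 0.37, and Rpl22 and the X-linked Rps4x over 0.21 each.

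**Figure D3:**
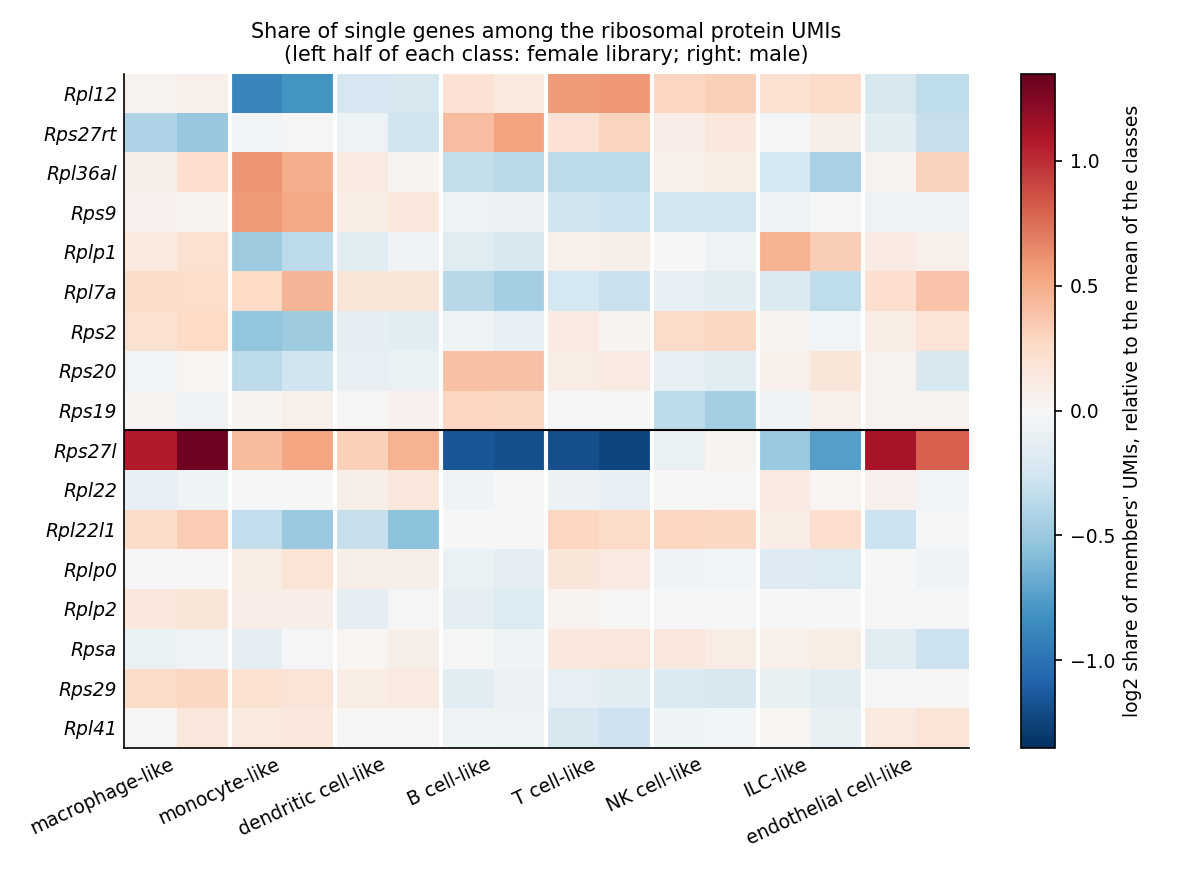
Colour, log2 share of a gene among all RP UMIs relative to the mean of 8 classes, with the female library on the left and the male on the right of each class; the upper rows are genes among the 10 with the widest range and the lower rows Rps27l and reference genes. Rpl12 is highest in T-like (0.57 and 0.59) and lowest in monocyte-like cells (-0.88 and -0.81), and the 2 libraries show like colours within a class.

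Between the libraries, the direction of the RP share depended on the class. Counting cycling cells but not the unnamed cluster, the share was higher in the female library in 6 classes and lower in the other 6. The difference, female minus male, was 1.46 percentage points in macrophage-like cells (Newcombe interval 1.41 to 1.52), 3.20 in NK-like cells (3.13 to 3.27), 2.02 in neutrophil-like, 1.86 in dendritic-like, 1.13 in T-like and 0.93 in monocyte-like cells. It was -0.65 in B-like cells (-0.78 to -0.52), -0.91 in ILC-like and -0.55 in endothelial-like cells, and -0.022 in mast- or basophil-like cells (-0.73 to 0.68). Plasmacytoid dendritic-like cells, with 19 and 9 cells, had the largest negative difference, -4.36 (-5.02 to -3.69), although their cell medians differed by 3.56 in the other direction. Cycling cells, with 32 and 15 cells, differed by -2.04 (-2.28 to -1.80). The shallow unnamed cluster held 10.7% in the female and 6.44% in the male library, a difference of 4.26 points (4.02 to 4.51). When each cell was gated by its own markers instead of by cluster, the differences of dendritic-like, B-like, ILC-like and endothelial-like cells changed sign. Among T-like cells the difference was -1.67 points (-1.84 to -1.49) in naive-marker, 0.90 in Cd8-led and 2.46 in the remaining cells. Among macrophages the difference was 2.24 points in Lyve1-high, 0.73 in Aldh1a2-high and 0.99 in other macrophages, where the cell medians differed by -0.17 points. The macrophage difference is smaller than the range of the macrophage clusters within 1 library. It also carries a different mix of subsets. Lyve1-high cells, with the lowest share, numbered 88 in the female and 161 in the male library, and the cluster led by Ccn1 164 and 54. By cluster the difference was 0.15 points in that led by Ms4a7 and 3.21 in that led by Ccn1. The part of the mix in the macrophage difference was not tested. The share over all cells, 3.30 points higher in the female library, also carries the different mix of classes.

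Another abundant RNA moved the other way. Gm42418, a locus that overlaps ribosomal RNA, stood at 3709 CPM over all female cells and 6232 CPM over all male cells, and at 4473 and 7527 CPM in macrophage-like cells. With its UMIs taken out, the macrophage shares were 17.4% and 16.0%. Its part in other differences between the libraries was not tested. Sex, library and depth cannot be told apart here.

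Single RP genes were counted between the libraries when they differed by at least 0.32 on the log2 scale. In macrophage-like cells 2 of 83 were higher in the female library, Rps27 and Rpl35, against 5.84% of 4160 genes, and 2 were lower, Rps27rt and Rpl10, against 9.42%. In monocyte-like cells 2 of 80 were higher (background 7.05% of 1120 genes) and 1 lower (7.95%). In B-like cells 3 of 80 were higher (6.18% of 1344 genes) and 1 lower (10.8%), and in T-like cells 3 of 82 were higher (5.00% of 2838 genes) and 2 lower (7.82%). In NK-like cells 6 of 83 were higher, against 2.69% of 4125 genes, and 2 lower, against 14.3%. The higher count in NK-like cells was 22, against 5.75%, with ratios divided by the median of all genes, 10, against 4.17%, without the RP genes in the denominator, and 2, against 0.606%, as shares of the RP UMIs. The members' counts were below the background in all of these except the higher genes of NK-like cells. The median log2 female to male ratio of the members was 0.15 in macrophage-like, 0.08 in monocyte-like, -0.02 in B-like, 0.06 in T-like and 0.20 in NK-like cells.

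Rps27 and Rpl35 on the female side and Rps27rt on the male side were past the threshold in all 5 classes. Rps27 stood at 167 CPM in female and 93.4 CPM in male macrophage-like cells, a ratio of 1.79 (1.54 to 2.07), and its ratio was between 1.41 and 1.53 in the other 4 classes. Rpl35, at the exit of the peptide tunnel, stood at 1184 and 826 CPM, a ratio of 1.43 (1.36 to 1.51), with 1.30 to 1.52 in the other classes. Rps27rt stood at 364 and 499.7 CPM, a ratio of 0.729 (0.675 to 0.787), with 0.558 to 0.686 in the others. Rpl10 had a ratio of 0.742 (0.589 to 0.933). Next in macrophage-like cells were, among others, Rpl29 (1.204) and Rpl13 (1.18) on the female side, and Rpl7l1 (0.883) and Rps29 (0.960) on the male side. Of the 80 genes with enough UMIs in all 5 classes, 25 (31.2%) had a higher CPM in the female library in each class and 1, Rps27rt, a lower one in each. Over all 748 genes with that many UMIs, 8.42% were higher and 9.49% lower in each class. As shares of the RP UMIs, 22 of the 80 were higher and 10 lower in each class. The share over all genes was not counted on this scale, so nothing is read from these 2 counts.

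**Figure D4:**
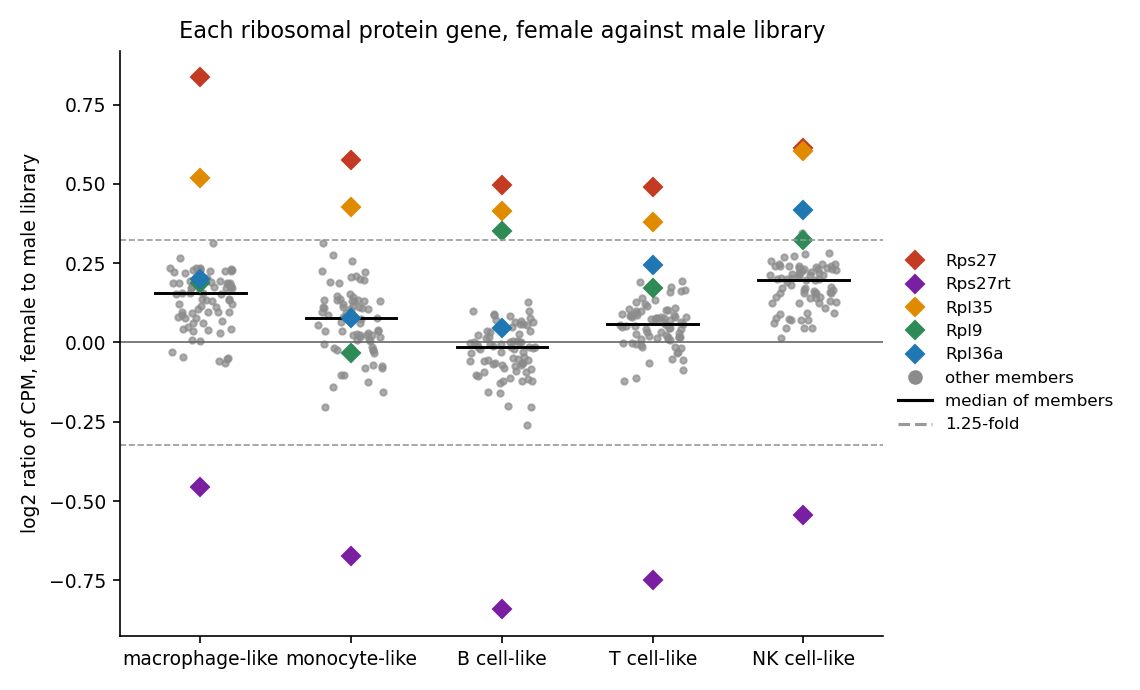
Vertical axis, log2 ratio of CPM of the female to the male library within a class; grey points are RP genes with at least 200 UMIs in each class over both libraries, diamonds 5 genes with near-identical copies, black lines medians and dashed lines the threshold of 0.32. Rps27 and Rpl35 lie above the upper dashed line and Rps27rt below the lower one in all 5 classes, while most points lie between the lines.

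Some of the genes past the threshold share their transcript end with another gene. Reads were 55 bases long, and every stretch of 55 bases in the last 400 bases of each member's first-listed coding transcript was looked up in the annotated transcripts of the other genes in the files. The shared part was 100% for Rpl10 and Rpl9, whose ends occur in Rpl10-ps3 and Rpl9-ps6. It was 98.6% for Rps27 and 90.9% for Rps27rt, a single-exon copy of Rps27 at chr9:114982366-114982739, and 83.8% for Rpl35, shared with Gm2000. For Rpl36a it was 75.1%, mostly with Rpl36a-ps1, for Rps18 71.4% and for Rpl41 63.3%. These 8 genes share at least 50% of the end, and 16 of the 83 share any of it. All 4 genes past the threshold in macrophage-like cells were among the 8, and 6 of the 9 genes past it in any class. The remaining 3 were Rpl7l1 in T-like cells (ratio 1.36), with 0.289% of its end shared, and Rpl39 and Rps19bp1 in NK-like cells (1.27 each), with none shared. The other 75 genes had macrophage ratios between 0.883 and 1.24.

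The split between gene and copy differed between the libraries in the same direction in all 5 classes for each of the 5 pairs, by amounts that varied for some. Rps27 took 30.9% of the joint UMIs of Rps27 and Rps27rt in the female library and 16.1% in the male library, with 29.1% to 31.4% and 14.7% to 16.4% over the 5 classes. Rpl35 took 81.7% and 71.3% of its pair (81.2% to 82.2% and 69.2% to 73.1%). Rpl9 took 47.2% and 32.2% (43.4% to 49.2% and 29.6% to 33.9%), and its libraries were closest in monocyte-like cells (43.4% and 33.9%) and farthest apart in B-like cells (49.2% and 29.6%). Rpl36a took 90.1% and 80.8% (88.9% to 90.4% and 79.6% to 83.2%). Rpl10 took 12.4% and 14.5% (11.2% to 13.3% and 13.6% to 15.6%), so most UMIs of this gene's sequence were assigned to its pseudogene.

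With gene and copy summed, a step added after the ratios were seen, the female to male ratio in macrophage-like cells was 0.895 for Rps27 with Rps27rt, 0.886 for Rpl10 with its copy, 0.801 for Rpl9, 1.05 for Rpl36a and 1.253 for Rpl35. In macrophage-like cells the ratio of Rps27 thus went from above 1 to below 1, while Rpl35 stayed near its threshold. In monocyte-, B-, T- and NK-like cells the summed ratio was 0.754, 0.687, 0.727 and 0.824 for Rps27. It was 0.761, 0.768, 0.790 and 0.849 for Rpl9. Both pairs were past the threshold on the male side in monocyte-, B- and T-like cells. Rpl35 with its copy stood at 1.196, 1.148 and 1.166, short of the threshold, and at 1.297 in NK-like cells. Rpl36a ranged from 0.910 in B-like to 1.202 in NK-like cells. The values of these genes between the libraries are uncertain because the split between gene and copy differed.

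**Figure D5:**
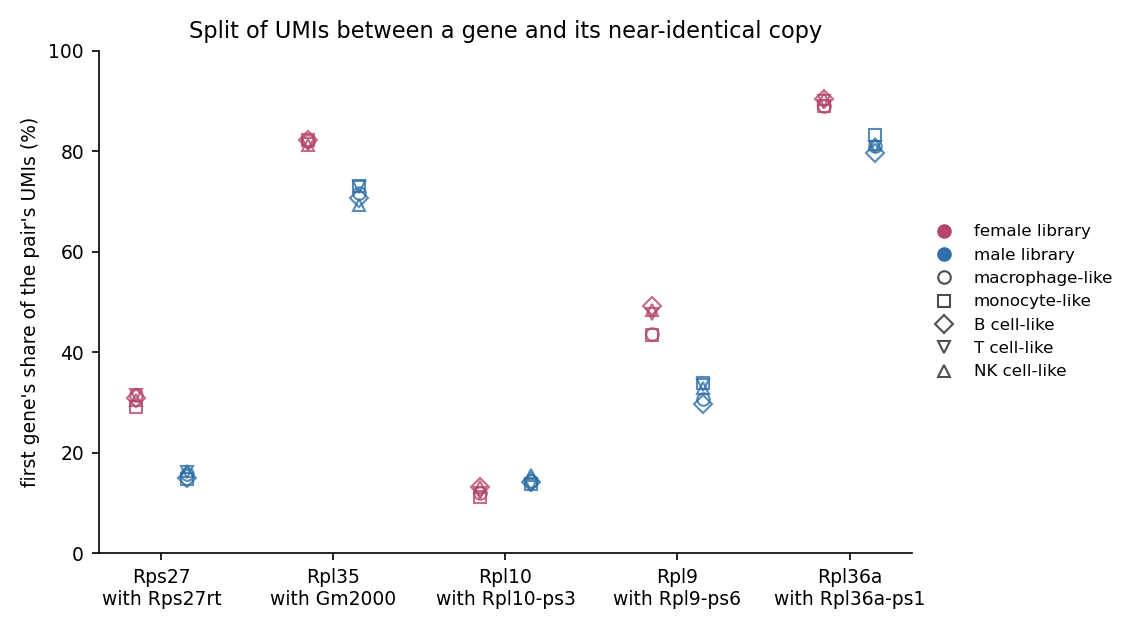
Vertical axis, share of the joint UMIs of a gene and its near-identical copy that were assigned to the first gene of the pair, in percent; each symbol is 1 class, female in red and male in blue. The classes of Rps27 lie close together within a library (29.1% to 31.4% and 14.7% to 16.4%), those of Rpl9 less so, and the libraries stand apart for Rps27, Rpl35, Rpl9 and Rpl36a.

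Other genes of the translation machinery were counted from lists. Fau stood at 7123 and 7022 CPM in T-like and 8727 and 9085 CPM in B-like cells, above the 4872 and 4099 CPM of macrophage-like cells. In neutrophil-like cells it was no lower than in macrophages, at 5639 and 4417 CPM. Rack1, a scaffold protein on the small subunit, stood at 2220 and 2261 CPM in T-like and 1373 and 1264 CPM in macrophage-like cells, and at 458 and 191 CPM in neutrophil-like cells.

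Translation factors and other TOP mRNAs were compared by the same 1.5-fold rule. Of 18 genes, 12 were higher than in macrophages in T-like cells (17.6% of all genes), 9 in B-like (10.8%), 9 in NK-like (24.6%), 8 in dendritic-like (6.64%) and 4 in monocyte-like cells (12.2%). None was lower in these classes, and 16 were lower in neutrophil-like cells (45.4%). Tpt1, a classic TOP mRNA, stood at 8334 and 8734 CPM in T-like against 4713 and 4424 CPM in macrophage-like cells. Eef1a1, the factor that brings tRNAs to the ribosome, stood at 5973 and 5867 against 3682 and 3076 CPM. Eef1b2, its exchange factor, stood at 1697 and 1555 against 625 and 550 CPM.

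Of the ribosome biogenesis genes, none of 17 with enough UMIs was higher in B-like cells, against 10.8% of all genes, and 1 was lower, against 33.9%. Their summed ratio there was 1.17 and 1.14. In T-like cells 7 of 25 were higher, against 17.6%, with a summed ratio of 1.56 and 1.39. In NK-like cells 13 of 27 were higher, against 24.6%, with a summed ratio of 1.71 and 1.64. Neutrophil-like cells had 13 of 14 lower, against 45.4%, with a summed ratio of 0.282 and 0.261. Monocyte-like cells had 3 of 15 lower, against 14.4%, with a summed ratio of 0.817 and 0.774. Nucleolin (Ncl) stood at 239 and 254 CPM in macrophage-like, 304 and 335 in B-like, 506 and 428 in T-like and 590 and 617 CPM in NK-like cells. Nop10, of the small nucleolar RNPs, stood at 372 and 398 CPM in B-like and 267 and 287 CPM in macrophage-like cells. Polr1d, a subunit shared by RNA polymerases I and III, stood at 222 and 197 against 172 and 176 CPM.

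Mitochondrial ribosomal proteins, which serve a separate ribosome, varied little by comparison in T-like, B-like and NK-like cells and were lower in neutrophil-like cells. Their summed ratio to macrophages was 1.05 in both libraries for T-like cells, 0.878 and 0.880 for B-like cells and 1.196 and 1.149 for NK-like cells. In T-like cells 6 of 71 were higher and 2 lower, against 17.6% and 26.0% of all genes. The counts were 1 and 8 of 65 in B-like cells, against 10.8% and 33.9%, and 11 and 1 of 72 in NK-like cells, against 24.6% and 19.7%. In neutrophil-like cells 40 of 55 were lower, against 45.4% of all genes, with a summed ratio of 0.571 and 0.563, and Mrpl33 was higher, at 1190 and 1203 CPM against 247 CPM in both libraries. Mrpl52 stood at 34.3 and 11.2 CPM there against 308 and 300.3 CPM, and Mrps21 at 206 and 180 against 161 and 170 CPM.

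Among 13 regulators of translation and growth, 2 were higher and 1 lower of 8 with enough UMIs in T-like cells, against 17.6% and 26.0% of all genes. Pdcd4, an inhibitor of the helicase eIF4A, stood at 548 and 534 CPM in T-like against 44.4 and 40.1 CPM in macrophage-like cells. Eif4ebp1, the mTOR-controlled inhibitor of eIF4E, stood at 18.4 and 19.0 against 110 and 99.9 CPM. Larp1 stood at 63.3 and 65.1 CPM in T-like and 84.6 and 73.0 CPM in macrophage-like cells.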

How the data were processed

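The authors deposited counts of UMIs per gene and barcode for 2 libraries, made with Cell Ranger 4.0.0 on mm10 per the file headers and the submitters' processing notes; their methods give a mitochondrial ceiling of 1.2%, which applied to the deposited barcodes keeps 333 female and 366 male of 3963 and 2685 barcodes, far fewer than the cells they analysed. Here barcodes with under 200 genes (9 and 13) or over 15% mitochondrial UMIs (137 and 170 barcodes) were removed, as were 123 and 53 doublets by Scrublet score (scanpy 1.11.5) at an expected rate of 0.8% per 1000 barcodes. Integration and clustering of the remaining cells used R 4.3.3 with the packages sctransform 0.4.2 and Seurat 5.3.0 (2000 features, 20 components, resolution 1), leaving out 100 RP, pseudogene and sex-linked genes. Clusters took a name when at least 3 markers of a class were raised 2-fold and detected in 20% of cells. The unnamed cluster met this with 7 macrophage markers raised. It was left unnamed as shallow (medians of 792 and 675 UMIs) and without a macrophage marker among its 10 leading genes. The deeper clusters led by Zmynd15 and by Ccn1 also lacked such a leading marker and were named macrophage. The cycling cluster was named from cycling markers among its leading genes. Total UMIs per library before filtering were 16218309 and 9512670. UMIs were summed by class and library, since cells are not replicates; intervals are Clopper-Pearson for shares, Poisson for levels, conditional binomial for ratios and Newcombe for differences. The script that counts genes past a fold was checked beforehand on simulated data. Gene positions are from GENCODE on GRCm38 and start windows from RefSeq; where a gene had several starts, the one with the longest run was used for members and all genes alike.

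Named members were the 10 with the highest CPM, the 10 with the widest range of proportions, the 5 highest and 5 lowest female to male ratios in macrophages, paralogs and stalk proteins, and the 3 highest genes of each other list; genes that lead a count or a class outside this rule (Rpl28, Rps15a between classes, Rpl18, Rps14, Rps27a, Rps18, Pdcd4, Eif4ebp1 and Larp1) were chosen after their values were seen. The members and lists were chosen with earlier results of these data known. The alternatives were other mitochondrial ceilings, a UMI minimum, no doublet removal, a marker gate per cell, other denominators, scalings, minimums and folds. Free RNA in droplets was not estimated. A few genes that these rules select are not reported here.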

Additional observations from a re-analysis of the deposited data

Results flagged for a closer look

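UMIs were also present for genes outside the member list, above the limit that a count of 0 allows, over all barcodes of both libraries. Near-identical pseudogenes of members held many: Rpl10-ps3 had 10100 UMIs, Rpl9-ps6 9607, Rpl36a-ps1 3342 and Rpl9-ps1 162. Rpl10-ps3 thus had more UMIs than Rpl10 itself, which had 1558. Symbols that match the rule but stayed under its minimum of 50 UMIs were Rpl3l with 47 UMIs, Rpl10l with 21 and Rpl39l with 18. Rpl3l is known from striated muscle, and Rpl10l and Rpl39l from testis. Of the last of these, 9 UMIs lay in the kept cells of each library.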

How the results depend on the processing

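Leaving out a replicate was not possible with 1 library per sex. No paired analysis was possible because the labels give 1 library per sex and no replicate numbers. Macrophage RP shares (17.3% and 15.9%, female and male) were 16.48 and 15.31 as cell medians, 17.95 and 16.41 without mitochondrial genes, 17.75 and 16.20 with the 80 subunit proteins, 17.62 and 16.36 with a 5% ceiling, 17.22 and 15.75 with no ceiling, 17.40 and 15.96 with at least 1000 UMIs, 17.74 and 15.94 without doublet removal and 17.64 and 16.26 with the gate per cell. Chosen after seeing the data, they were 17.42 and 16.00 without Gm42418 and 17.16 and 15.51 with the unnamed cluster. The macrophage difference of 1.46 points was 1.174, 1.540, 1.557 and 1.259 under the first 4 of these, 1.809 without doublet removal, 1.381 with the gate and 1.652 with the unnamed cluster. The NK difference of 3.20 was 2.833, 3.377 and 3.272 under the first 3 and 3.027 with the gate. The ratio of T-like to macrophage shares was 2.103 and 2.128 as medians, 2.022 and 2.143 with 80 proteins, 2.018 and 2.090 at 5%, 1.982 and 2.112 with no ceiling, 2.002 and 2.120 with the gate, and in the female library 2.051 without mitochondrial genes and 2.003 without doublet removal. With the gate the differences of dendritic-like (-1.534), B-like (0.4843), ILC-like (0.5510) and endothelial-like cells (0.1712) reversed. The MHC class II low minus high difference reversed in the female library at a boundary of 20 (0.6137), a 5% ceiling (0.1257) and the gate (0.06115), and in the male library with the gate (0.4931). As shares of the members' own UMIs, 3 members were higher (4.91% of all genes) and 5 lower (68.6%) in T-like cells, and 5 higher (45.8%) and 15 lower (15.1%) in neutrophil-like cells; this scale removes the common level by construction. With ratios divided by the median of all genes, 1 was higher (28.1%) and 58 of 83 lower (30.0%) in neutrophil-like cells. At 2-fold, 40 were higher in T-like cells (9.27%), and at 1.5-fold between libraries 1 was higher (1.51%) and 0 lower (2.19%) in female macrophage-like cells; with at least 500 UMIs 1 was lower (6.93%). The cause of the other changes was not tested. Depth limits Rps27l, Rpl7l1 and Rps19bp1 in small classes and all values of neutrophil-like cells.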
